A study of Mus musculus with 16 samples.

Results

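The 9 genes described here encode subunits of ion channels that set the electrical excitability of the pancreatic β cell: the calcium channel pores Cacna1a, Cacna1c and Cacna1d, the auxiliary calcium channel subunits Cacnb2 and Cacna2d1, the sodium channel pores Scn9a and Scn8a, and the potassium channel pores Kcnh6 and Kcnk16. They were taken by symbol from a matrix of 25105 genes, by a rule that sets no threshold on their values, and all 9 were found in it. Poly(A) RNA-seq was performed on dispersed islet cells from adult Grp78 flox/flox mice, in which exons of the gene for the endoplasmic reticulum chaperone GRP78 (gene symbol Hspa5) are flanked by loxP sites. Cells of 4 islet preparations, 2 female (F1, F2) and 2 male (M1, M2), were each divided among 4 conditions for 72 hours in 15 mM glucose: adenovirus expressing LacZ with vehicle (Ad-LacZ, control), adenovirus expressing Cre recombinase with vehicle (Ad-Cre), Ad-LacZ with the pan JNK inhibitor JNK-IN-8 (Ad-LacZ + JNK inhibitor) and Ad-Cre with that inhibitor (Ad-Cre + JNK inhibitor). There were thus 16 libraries, 4 per condition, all of the same floxed genotype. The sample titles name 2 animals per preparation. Adenoviral Cre is not restricted to β cells. The dispersed islet cells were sequenced in bulk, so each library mixes the RNA of all islet cell types. Fewer β cells and less RNA per β cell therefore cannot be told apart.

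In the β cell, glucose metabolism closes ATP-sensitive potassium channels, the membrane depolarises, and voltage-gated calcium channels admit the calcium that triggers insulin granule release. Sodium channels contribute to the upstroke of the action potential, and voltage-gated and two-pore domain potassium channels shape repolarisation and the resting potential. Auxiliary β and α2δ subunits bring calcium channel pores to the plasma membrane and adjust their gating.

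At gene level the transcript of the targeted gene was higher under the Ad-Cre label. Hspa5 was at 395 to 483 RPKM (reads per kilobase of exon, scaled to the mapped reads of the library) in the 4 Ad-LacZ libraries and at 1110 to 1600 RPKM in the 4 libraries labelled Ad-Cre, a log2 fold change of 1.52 (SE 0.18, n = 4 per group; limma, Benjamini-Hochberg adjusted p = 0.00212). Because the transcript was higher, not lower, the samples are called libraries labelled Ad-Cre, and every direction below rests on that label. Reads over the floxed exons alone were not analysed here. The study also measured this transcript by quantitative PCR in parallel RNA aliquots and gives it there as lower, the direction of the labels. In those aliquots it gives the chaperone transcripts Grp94 and Calr as higher, which it calls compensatory. For cultures of the same kind it reports iCre expression with Ad-Cre and, by immunoblot, a partial reduction of GRP78 protein. From the RNA-seq it gives the unfolded protein response, a reaction to endoplasmic reticulum stress, as the most enriched gene set after knockdown. None of these results of the study was analysed here. Jun, a gene that JNK signalling is known to induce, was at 15.7 to 28.6 RPKM in Ad-LacZ and 6.02 to 14.1 RPKM in Ad-LacZ + JNK inhibitor, and at 16.6 to 31.2 RPKM in the libraries labelled Ad-Cre and 7.18 to 13.1 RPKM in those labelled Ad-Cre + JNK inhibitor. The groups with and without the inhibitor did not overlap, but the adjusted p was 0.174 and 0.212, and 0.0341 and 0.0104 when the limma fit held a term for each preparation (called the block from here on). Depth, inferred here from the deposited RPKM values, was 7723000 to 25466000 reads. The study gives raw counts per sample with a higher minimum. The shallowest library, Ad-Cre + JNK inhibitor of preparation F2, was also the only one whose column name carries another prefix and another lane code. These were read here as another sequencing run and lane. The β cell markers Ins1, Ins2, Iapp, Slc2a2, Mafa, Ucn3, Nkx6-1, Pdx1 and G6pc2 were all detected, with a summed level of 33300 to 84700 RPKM over the 16 libraries, and the acinar markers were at or near 0.

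The genes differed in size, and this recurs in the results. Merged exons, the union of all annotated exons on build GRCm38, spanned 11418 bases in Cacna1a (chr8:84388440-84640246), 21191 in Cacna1c (chr6:118587240-119196418), 12621 in Cacna1d (chr14:30039939-30491455), 13228 in Cacnb2 (chr2:14603088-14987908), 12416 in Cacna2d1 (chr5:15934691-16374511), 12772 in Scn9a (chr2:66480080-66634962) and 15766 in Scn8a (chr15:100869858-101045938). Both potassium channel genes were short, with 3549 bases in Kcnh6 (chr11:106008124-106034549) and 2377 in Kcnk16 (chr14:20261376-20269199). The 7 calcium and sodium channel genes were all longer than 10000 bases of exon. Exons of 4 of them overlapped exons of a gene on the other strand: Cacna1a with Gm16183 over 435 bases, Cacna1d with Chdh over 589 bases, Scn9a with Gm13629 over 180 bases, and Cacnb2 with Gm10849, Gm10848 and Gm13269 over 618, 111 and 239 bases. Whether the library kit keeps strand was not given in the sources used here, so reads of these stretches cannot be assigned to one gene.

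Promoter sequences are shown for the genes the results turn on. The RefSeq table (build GRCm38.p6) held 13 start sites for 8 of the 9 genes, and Cacna1a was not matched. The 250 bases before the start are printed for the 3 genes called lower in libraries labelled Ad-Cre (Scn9a, Cacna2d1 and Cacnb2, the last with 2 start sites) and, as a contrast, for Kcnk16. They were searched on both strands for the AP-1 motif TGANTCA, which JUN-containing dimers bind, and for the E-boxes CAGATG (read as CATCTG on the other strand) and CAGCTG, the kind of letters that basic helix-loop-helix factors such as NEUROD1 bind. The E-box letters CAGCTG read the same on both strands, and no match of one motif overlapped another. Capitals mark the matches.
Scn9a (chr2:66634963-66635212, minus strand): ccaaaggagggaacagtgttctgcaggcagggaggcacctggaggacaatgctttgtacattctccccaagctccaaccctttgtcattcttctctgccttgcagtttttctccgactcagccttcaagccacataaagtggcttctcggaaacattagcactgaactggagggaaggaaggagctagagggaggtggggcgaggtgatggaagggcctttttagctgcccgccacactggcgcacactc
Cacna2d1 (chr5:15934441-15934690, plus strand): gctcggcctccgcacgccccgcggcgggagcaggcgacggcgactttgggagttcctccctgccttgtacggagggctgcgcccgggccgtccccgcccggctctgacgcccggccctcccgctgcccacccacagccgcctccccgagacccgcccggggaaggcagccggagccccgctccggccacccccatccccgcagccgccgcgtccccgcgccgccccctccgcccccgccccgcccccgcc
Cacnb2, first start (chr2:14604056-14604305, plus strand): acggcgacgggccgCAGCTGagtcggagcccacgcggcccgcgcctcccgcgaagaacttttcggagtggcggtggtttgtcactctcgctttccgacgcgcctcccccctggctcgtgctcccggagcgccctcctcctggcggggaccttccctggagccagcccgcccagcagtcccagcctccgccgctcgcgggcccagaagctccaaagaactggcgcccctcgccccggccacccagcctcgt
Cacnb2, second start (chr2:14823842-14824091, plus strand): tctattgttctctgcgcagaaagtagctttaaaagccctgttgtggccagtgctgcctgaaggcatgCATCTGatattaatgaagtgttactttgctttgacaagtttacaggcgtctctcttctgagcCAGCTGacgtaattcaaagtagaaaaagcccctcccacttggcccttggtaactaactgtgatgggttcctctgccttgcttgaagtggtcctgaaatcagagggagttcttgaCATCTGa
Kcnk16 (chr14:20269270-20269519, minus strand): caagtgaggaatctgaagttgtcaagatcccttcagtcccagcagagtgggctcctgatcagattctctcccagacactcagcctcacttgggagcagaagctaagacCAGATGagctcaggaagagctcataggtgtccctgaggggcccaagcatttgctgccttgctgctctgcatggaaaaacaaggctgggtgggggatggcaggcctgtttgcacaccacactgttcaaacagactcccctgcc
None of the 13 windows held the AP-1 letters, which occurred in 6.75% of all 32851 windows in the table. CAGATG occurred in 4 of the 13 (14.4% of all windows) and CAGCTG in 3 of the 13 (13% of all). Scn9a and Cacna2d1 held none of the 3 motifs, while the second Cacnb2 start held 3 matches and Kcnk16 held 1. The Cacna2d1 window was 82.4% G and C and the Scn9a window 54.4%, against a median of 52.4% over all windows. These matches describe the letters of the windows and were not tested against expression.

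Levels per length placed Kcnk16 first among the 9 genes in every condition. In Ad-LacZ it averaged 41.1 RPKM (SD 8.29, n = 4), above 94.7% of detected genes, and its range did not overlap that of Cacna2d1, which followed at 19.3 RPKM (SD 0.808). Cacna2d1 in turn lay above Cacna1d, at 10.4 RPKM, without overlap. Below these the ranges of neighbours overlapped: Cacna1d, Kcnh6 (9.57 RPKM), Cacna1a (8.47), Scn9a (5.28), Cacna1c (3.51) and Cacnb2 (2.8). Scn8a came last at 1.2 RPKM, below Cacnb2 without overlap. In the libraries labelled Ad-Cre, Scn9a ranked below Cacna1c, with 4 of 4 preparations in that order, whereas it ranked above Cacna1c in 4 of 4 Ad-LacZ preparations. Reads per gene and library ran from 113 for Scn8a to 5772 for Cacna2d1, so Scn8a has the least counting precision.

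**Figure D1:**
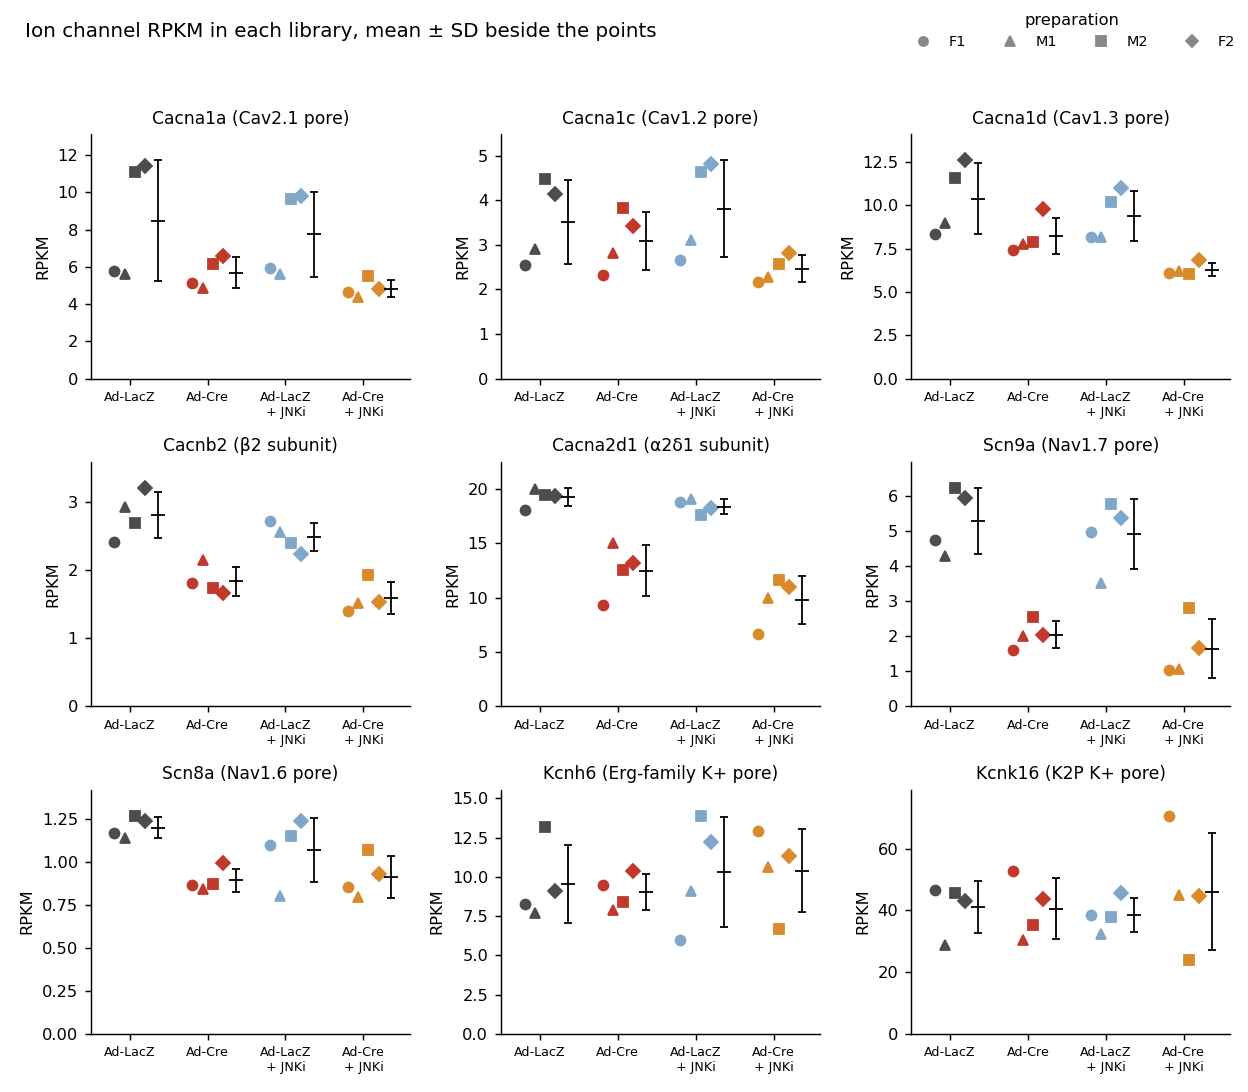
RPKM as deposited (y axis, from 0) of the 9 channel genes in each library, by condition (x axis; JNKi, JNK inhibitor); marker shapes give the preparation and black bars the mean ± SD of 4 libraries. Scn9a, Cacna2d1 and Cacnb2 lie lower in all libraries labelled Ad-Cre than in any Ad-LacZ library, and Kcnh6 and Kcnk16 overlap between all conditions.

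The first comparison asked how channel transcripts differed between libraries labelled Ad-Cre and Ad-LacZ. Of the 9 genes, 3 were called lower at an adjusted p under 0.05 in limma (Scn9a, Cacna2d1 and Cacnb2) and none higher. In the same comparison 16.6% of the 11590 genes tested were called, and 9.43% were called lower. With the block 4 of the 9 were called (Cacna1a was added), against 33.9% of all genes. Scn8a passed the filter on low values through its Ad-LacZ libraries alone, so its lower value was fixed by the filter. Among the other 8 genes the groups did not overlap for 3, all lower, as for 15.9% of all genes in that direction, and all 8 fold changes were below 0, with a median of -0.35 against 0.00 over all genes tested. By the criteria named for the study, an unadjusted p under 0.05 and a fold change above 1.5, Scn9a and Cacna2d1 passed on the log2(RPKM + 1) scale, against 10.2% of all genes. On the ratio of mean RPKM as deposited, an alternative chosen after seeing the data, Cacnb2 (1.53-fold) passed as well, against 14.9% of all genes.

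Scn9a encodes Nav1.7, a fast voltage-gated sodium channel pore. It was at 4.73, 4.27, 6.21 and 5.93 RPKM in the Ad-LacZ libraries of F1, M1, M2 and F2, and at 1.6, 2, 2.53 and 2.02 RPKM in the libraries labelled Ad-Cre. The groups did not overlap, and the change within preparations was -1.10, -0.79, -1.03 and -1.24 on the log2 scale. The log2 fold change was -1.04 (SE 0.11, 95% interval -1.28 to -0.80; limma adjusted p = 0.00136; exact two-sided permutation p = 0.0286, the smallest that 4 against 4 allows). The call held in all 15 alternatives run, over which the fold change was -1.37 to -0.82 and the adjusted p 0.000628 to 0.0248.

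Cacna2d1 encodes the α2δ1 subunit, which promotes the surface expression of calcium channel pores. It was at 18.1, 20, 19.5 and 19.4 RPKM in Ad-LacZ and at 9.35, 15, 12.6 and 13.2 RPKM in the libraries labelled Ad-Cre. The Ad-LacZ values were tightly grouped, and the lowest value under the Ad-Cre label was that of F1. The log2 fold change was -0.60 (SE 0.14, 95% interval -0.91 to -0.30; limma adjusted p = 0.0201, and 0.00431 with the block). The adjusted p rose to 0.0908 without preparation F1, 0.0597 without M2 and 0.122 without F2, with fold changes of -0.53, -0.59 and -0.60.

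Cacnb2 encodes the β2 subunit, which binds calcium channel pores from the cytoplasmic side. It was at 2.41, 2.92, 2.69 and 3.2 RPKM in Ad-LacZ and at 1.8, 2.15, 1.73 and 1.66 RPKM in the libraries labelled Ad-Cre. The groups were separate but close, the highest Ad-Cre value and the lowest Ad-LacZ value differing by less than the range within Ad-LacZ. The log2 fold change was -0.42 (SE 0.12; limma adjusted p = 0.048, and 0.0189 with the block). Leaving out any one preparation ended the call: the adjusted p was 0.103 without F1, 0.102 without M1, 0.0989 without M2 and 0.233 without F2, at -0.48, -0.46, -0.41 and -0.32.

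The calcium channel pores did not pass the test. Cacna1a encodes Cav2.1, the P/Q-type pore. It was at 5.75 and 5.6 RPKM in the Ad-LacZ libraries of F1 and M1 but at 11.1 and 11.4 RPKM in those of M2 and F2, and at 5.14, 4.86, 6.15 and 6.59 RPKM in the libraries labelled Ad-Cre of F1, M1, M2 and F2. The difference between preparations within Ad-LacZ was thus as large as that between labels, and the change within preparations was -0.07 and -0.14 in F1 and M1 and -0.78 in both M2 and F2. The log2 fold change was -0.44 (SE 0.20; limma adjusted p = 0.153). With the block it was called, at an adjusted p of 0.0441.

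Cacna1d and Cacna1c encode Cav1.3 and Cav1.2, the L-type pores of the β cell. Cacna1d was at 8.34, 8.98, 11.6 and 12.6 RPKM in Ad-LacZ and at 7.45, 7.8, 7.89 and 9.78 RPKM in the libraries labelled Ad-Cre. Cacna1c was at 2.55, 2.9, 4.48 and 4.13 RPKM in Ad-LacZ and at 2.33, 2.81, 3.82 and 3.41 RPKM under the Ad-Cre label. Both overlapped between labels, and both were higher in M2 and F2 than in F1 and M1 of Ad-LacZ. The log2 fold changes were -0.29 for Cacna1d (SE 0.13, 95% interval -0.58 to 0.00, limma adjusted p = 0.15) and -0.13 for Cacna1c (SE 0.13, 95% interval -0.43 to 0.16, adjusted p = 0.522).

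Scn8a encodes Nav1.6, another sodium channel pore. It was at 1.17, 1.14, 1.27 and 1.24 RPKM in Ad-LacZ and at 0.867, 0.841, 0.874 and 0.992 RPKM in the libraries labelled Ad-Cre. The groups did not overlap, but only the Ad-LacZ libraries of Scn8a were above the filter (over 1 RPKM in at least 4 libraries), so that a lower value under the Ad-Cre label was built into its being tested. The log2 fold change was -0.22 (SE 0.09; limma adjusted p = 0.131). In a voom fit on recovered reads, an alternative chosen after seeing the data, it was -0.44 with an adjusted p of 0.0322.

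The potassium channel pores showed no change that the test could detect. Kcnh6 belongs to the ether-à-go-go-related (Erg) family of repolarising channels, and Kcnk16 encodes TALK-1, a two-pore domain background channel. Kcnh6 was at 8.27, 7.69, 13.2 and 9.13 RPKM in Ad-LacZ and at 9.46, 7.89, 8.39 and 10.4 RPKM under the Ad-Cre label. Kcnk16 was at 46.7, 28.9, 45.7 and 43.2 RPKM in Ad-LacZ and at 52.8, 30.3, 35.1 and 43.7 RPKM under the Ad-Cre label. In both genes the groups overlapped throughout, and preparation M2 moved down while F1 and M1 moved up. The log2 fold changes were -0.05 for Kcnh6 (95% interval -0.38 to 0.27, limma adjusted p = 0.833) and -0.03 for Kcnk16 (95% interval -0.53 to 0.47, adjusted p = 0.944). These intervals still hold changes of the size seen for Cacnb2 in Kcnk16 and somewhat smaller ones in Kcnh6.

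**Figure D2:**
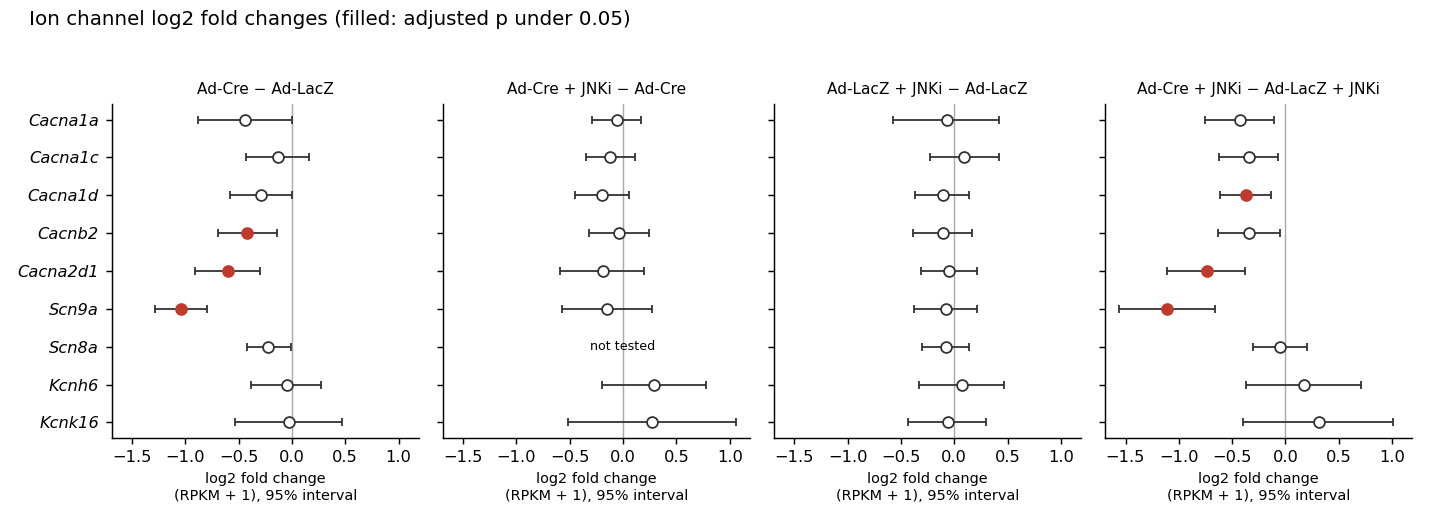
Log2 fold changes on the log2(RPKM + 1) scale (x axis) of the 9 channel genes (rows) in the 4 comparisons between conditions (panels; JNKi, JNK inhibitor), with limma 95% intervals; filled points have an adjusted p under 0.05. Scn9a is the gene farthest below 0 in both comparisons of the virus, at -1.04 and -1.11, and no gene is filled in the comparisons of the inhibitor.

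The fold changes went with exon length across the whole transcriptome. Between libraries labelled Ad-Cre and Ad-LacZ, the median log2 fold change was 0.14 over the 1868 genes tested with under 2000 bases of merged exon, 0.06 over 3416 genes of 2000 to 4000 bases, 0.00 at 4000 to 6000, -0.06 at 6000 to 8000, -0.11 at 8000 to 10000 and -0.22 over the 1095 genes of 10000 bases or more. Of those longest genes, 23% were called lower and 1.37% higher, against 4.66% and 11.5% of the shortest. The 7 calcium and sodium channel genes all belong to the longest class and the 2 potassium channel genes to that of 2000 to 4000 bases. In single libraries the median deviation of the longest genes from their mean over the 16 libraries was 0.09 to 0.22 in the 8 libraries with Ad-LacZ and -0.25 to -0.03 in the 8 labelled Ad-Cre, without overlap. RNA integrity values of single libraries were not analysed here.

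The channel genes were therefore set beside genes of like length. When the trend of each library on exon length was taken out before the limma fit, an alternative chosen after seeing the data, Scn9a was still called lower, at -0.82 (adjusted p = 0.00219, and 0.00158 with the block). Cacna2d1 was at -0.39 with an adjusted p of 0.0501, and 0.017 with the block. Cacnb2 was at -0.19 (adjusted p = 0.263), Cacna1a at -0.25 (0.413) and Cacna1d at -0.07 (0.696), none of them called. Scn8a and Cacna1c changed sign, to 0.05 and 0.20, and neither was called. In this fit 1 of the 9 genes was called, against 16.5% of all genes, and with the block 2 of the 9 were called, against 31.3% of all genes.

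**Figure D3:**
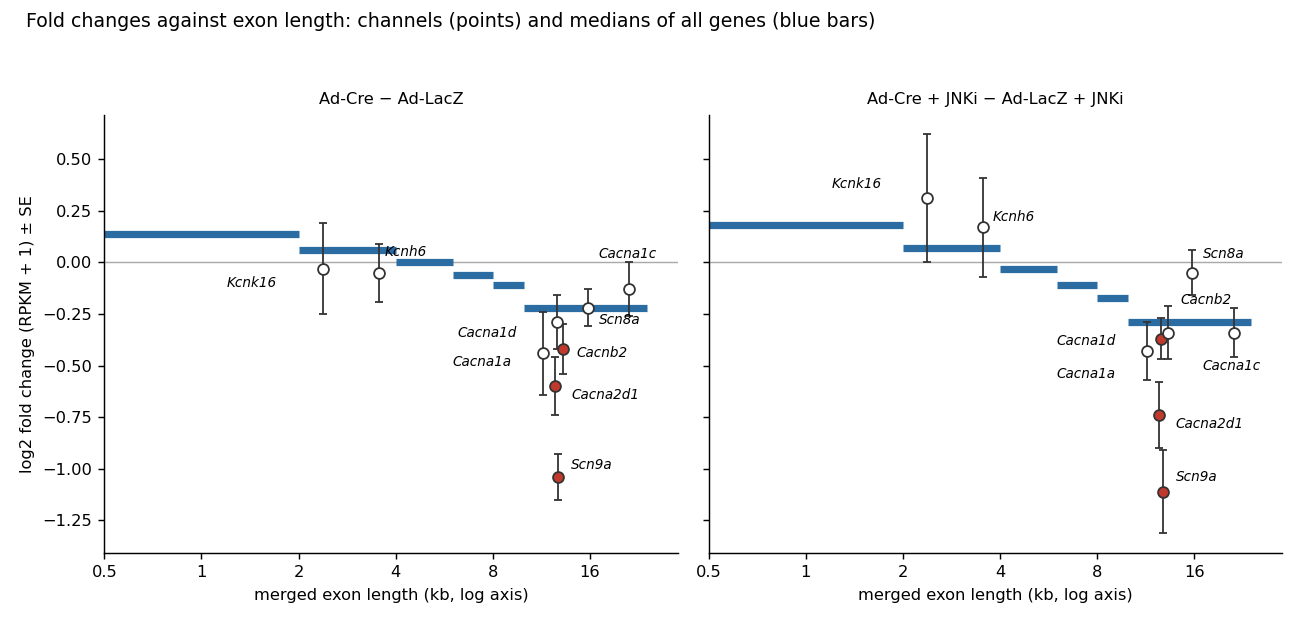
Log2 fold change ± SE (y axis) of the 9 channel genes against merged exon length (x axis, log scale) for the virus without inhibitor (left) and with it (right; JNKi, JNK inhibitor); blue bars are medians of all genes tested in 6 length classes, the first holding all genes under 2 kb and the last all of 10 kb or more, and filled points have an adjusted p under 0.05. The bars step down from 0.14 to -0.22 on the left and from 0.18 to -0.29 on the right, and Scn9a and Cacna2d1 lie farthest below the last bar.

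Cell type markers moved with the same labels. The 9 β cell markers all had fold changes below 0 between libraries labelled Ad-Cre and Ad-LacZ, with a median of -0.80, and 2 were called by limma, and 6 with the block. Their summed level was 51900 to 84700 RPKM in Ad-LacZ and 33500 to 84400 RPKM under the Ad-Cre label, and the sums overlapped. The summed level of 6 macrophage markers was 66.1 to 74.7 RPKM in Ad-LacZ and 64.9 to 194 RPKM under the Ad-Cre label, and all 6 had fold changes above 0, with 1 called, and 5 with the block. That of 6 stellate cell and fibroblast markers was 23.6 to 108 RPKM and 21.8 to 669 RPKM, highest in preparation M2 under both labels. Markers of Schwann cells and neurons, which also use sodium channels, summed to 22 to 33.3 RPKM and 16.3 to 23.3 RPKM. Elavl4, a neuronal RNA-binding protein gene, was called lower at -0.92 (limma adjusted p = 0.0112, and 0.00115 with the block), while Snap25 (-0.06) was not called. The sums for alpha cells (12700 to 19300 and 11800 to 21500 RPKM), delta cells (1270 to 2580 and 1130 to 2550), the PP cell marker Ppy (1290 to 2450 and 1730 to 2750), duct cells (136 to 274 and 104 to 331) and endothelial cells (18.1 to 33 and 16.8 to 61.5) overlapped between the labels. The part of these markers in the channel results was not tested.

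The next comparison asked whether the JNK inhibitor altered channel transcripts in cells labelled Ad-Cre. None of the 8 genes tested was called higher or lower, and Scn8a was below the filter. In this comparison 0.0174% of the 11503 genes tested were called by limma, 2 genes in all, while 887 (7.71%) had an unadjusted p under 0.05 and 750 (6.52%) were called with the block. None of the 8 channel genes had an unadjusted p under 0.05, and none was called with the block. In the libraries labelled Ad-Cre + JNK inhibitor of F1, M1, M2 and F2, Scn9a was at 1.03, 1.06, 2.8 and 1.67 RPKM, Cacna2d1 at 6.63, 10, 11.6 and 11 RPKM, and Cacnb2 at 1.39, 1.52, 1.92 and 1.53 RPKM. All of these lay within or below the range without inhibitor except Scn9a in M2, which was above it. Their log2 fold changes were -0.15 (95% interval -0.57 to 0.27), -0.19 (-0.59 to 0.20) and -0.04 (-0.32 to 0.24).

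Cacna1d was the 1 channel gene whose groups did not overlap in RPKM as deposited, with and without the inhibitor. It was at 6.11, 6.21, 6.05 and 6.83 RPKM with the inhibitor, all below the 7.45 RPKM that was the lowest value without it, as were the groups of 9.64% of all genes. Without rescaling between libraries, the median log2 fold change of all genes was -0.14 in this comparison. On scaled values the groups of Cacna1d overlapped (exact permutation p = 0.114). Its log2 fold change was -0.20 (SE 0.11, limma adjusted p = 0.759, and 0.161 with the block). Cacna1a was at 4.67, 4.36, 5.48 and 4.82 RPKM and Cacna1c at 2.16, 2.27, 2.57 and 2.82 RPKM, with log2 fold changes of -0.06 and -0.12. Kcnh6, at 12.9, 10.6, 6.66 and 11.3 RPKM, and Kcnk16, at 70.7, 45.1, 24 and 44.8 RPKM, spread widely, with M2 lowest and F1 highest in both genes. Their log2 fold changes of 0.29 (95% interval -0.20 to 0.78) and 0.27 (-0.52 to 1.06) leave both a rise and a fall possible. Among the cell type markers, all 5 alpha cell markers (median 0.47) and all 3 delta cell markers (0.85) had fold changes above 0 with the inhibitor. None was called by limma, and with the block 1 alpha cell marker (Ttr, adjusted p = 0.0104) and 2 delta cell markers (Sst, 0.0365, and Rbp4, 0.0475) were called. Their part was not tested.

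In the Ad-LacZ control, the inhibitor gave no call among the 9 genes. Over all genes 0.197% were called (23 of 11657), 697 (5.98%) had an unadjusted p under 0.05, and 46 (0.395%) were called with the block. None of the 9 was among either. Groups did not overlap for 4.84% of all genes and for none of the 9. Scn9a was at 4.97, 3.5, 5.77 and 5.36 RPKM, Cacna2d1 at 18.8, 19.1, 17.6 and 18.3 RPKM, and Cacnb2 at 2.72, 2.55, 2.4 and 2.23 RPKM. These values overlapped those of Ad-LacZ in each gene, and Cacna2d1 again varied little. The other 6 genes overlapped as well, with Cacna1a at 5.96, 5.6, 9.66 and 9.79 RPKM, split between the preparations as in Ad-LacZ. Over the 9 genes the log2 fold change was between -0.11 and 0.09, with a median of -0.07 against -0.01 over all genes. Duct cell markers summed to 376 to 909 RPKM with the inhibitor and 136 to 274 RPKM without it. None was called by limma and 1 with the block, Spp1 (1.87, adjusted p = 0.0341 with the block). Spp1 made up most of these sums, with means of 571 and 161 RPKM. Krt7, another duct cell marker, was at 52.8 and 44.5 RPKM (0.25, limma adjusted p = 0.784). The remaining duct cell markers, Krt19 and Sox9, were below the filter. Krt19 averaged 9.42 RPKM (SD 15.8) with the inhibitor and 0.816 RPKM without it, and Sox9 0.701 and 0.481 RPKM. Macrophage markers summed to 130 to 304 RPKM and 66.1 to 74.7 RPKM, and Cd68 (1.21, limma adjusted p = 0.0171) and Lyz2 (2.17, 0.0366) were called higher. The part of either was not tested. This comparison shares its Ad-LacZ libraries with the first.

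Between libraries labelled Ad-Cre + JNK inhibitor and Ad-LacZ + JNK inhibitor, 3 of the 9 genes were called lower (Scn9a, Cacna2d1 and Cacna1d) and none higher. Over all genes 20.2% of 11598 were called, 10.4% lower (1204 lower and 1141 higher; 2106 lower and 950 higher without rescaling of the deposited RPKM). With the block 2 of the 9 were called, against 24.4% of all genes, Cacna1d being lost at an adjusted p of 0.053. In RPKM as deposited the groups did not overlap for 5 of the 9 genes, all lower (20.7% of all genes in that direction): Scn9a, Cacna2d1, Cacna1d, Cacna1a and Cacnb2. By the study's criteria, with a fold change above 1.5, Scn9a and Cacna2d1 passed on the log2(RPKM + 1) scale, against 17.9% of all genes. On the ratio of mean RPKM as deposited, Cacna1a (1.6-fold), Cacna1c (1.55-fold) and Cacnb2 (1.56-fold) passed as well, against 24.5% of all genes. That ratio was not rescaled between libraries, and without rescaling the median log2 fold change of all genes was -0.14 in this comparison. The median over the 9 genes was -0.34, against -0.03 over all genes.

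Scn9a was 1.03 to 2.8 RPKM under the Ad-Cre label and 3.5 to 5.77 RPKM under Ad-LacZ, both with inhibitor, and its log2 fold change was -1.11 (SE 0.20; limma adjusted p = 0.00645). The call ended without both libraries of preparation F2 (-1.10, limma adjusted p = 0.0679), but not without the F2 library of the other lane alone (adjusted p = 0.0225). Cacna2d1 was 6.63 to 11.6 RPKM against 17.6 to 19.1 RPKM, a log2 fold change of -0.74 (SE 0.16; adjusted p = 0.0135); the call ended without M1 (0.0988) and without F2 (0.0855). Cacna1d was 6.05 to 6.83 RPKM against 8.17 to 11 RPKM, all separate, at -0.37 (SE 0.10; adjusted p = 0.0335). Its adjusted p was 0.0741 to 0.224 when any one preparation was left out and 0.0833 without the library of the other lane. These 3 genes fell in each of the 4 preparations.

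The remaining genes were not called with inhibitor. Cacna1a was at -0.43 (limma adjusted p = 0.0593), Cacna1c at -0.34 (0.074) and Cacnb2 at -0.34 (0.0894). Scn8a was at 1.1, 0.805, 1.15 and 1.24 RPKM in Ad-LacZ + JNK inhibitor and at 0.852, 0.794, 1.07 and 0.928 RPKM in Ad-Cre + JNK inhibitor, a log2 fold change of -0.05, and quantile normalization turned its sign (0.05). Kcnh6 and Kcnk16 were above 0, at 0.17 (95% interval -0.37 to 0.71) and 0.31 (-0.40 to 1.01). Without preparation F1, Kcnh6 was at -0.12. Exon length again moved with the fold change, from a median of 0.18 in genes under 2000 bases to -0.29 in those of 10000 or more. With the trend on length taken out, Scn9a was at -0.83 (limma adjusted p = 0.0121) and Cacna2d1 at -0.47 (0.0383, and 0.0623 with the block), while Cacna1d was at -0.10 (0.567). Macrophage markers summed to 130 to 304 RPKM under Ad-LacZ and 167 to 287 RPKM under the Ad-Cre label, both with inhibitor. The 9 β cell markers had a median fold change of -0.84, with 8 of them below 0 and 4 called lower. Ins2 was above 0, at 0.57 (limma adjusted p = 0.267, and 0.0213 with the block). With the block 6 were called lower and 1, Ins2, higher. Their summed level was 36000 to 61300 RPKM under Ad-LacZ and 33300 to 64400 RPKM under the Ad-Cre label, and the sums overlapped. Duct cell markers summed to 376 to 909 RPKM and 217 to 305 RPKM, without overlap, with Spp1 called lower (-1.29, limma adjusted p = 0.00697). Spp1 made up most of these sums, with means of 571 and 206 RPKM. Krt7, another duct cell marker, was at 52.8 and 49.2 RPKM (-0.01, limma adjusted p = 0.992). Krt19 (means of 9.42 and 0.57 RPKM) and Sox9 (0.701 and 0.573 RPKM) were below the filter. Ppy was called higher (0.93, adjusted p = 0.026), as were all 3 delta cell markers with the block only, and Elavl4 was called lower (-1.17, 0.0025). The 6 stellate cell and fibroblast markers had a median of -1.21, with none called by limma and 4 lower with the block. The part of these markers was not tested.

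Whether the difference between virus labels depended on the inhibitor was tested as an interaction over all 16 libraries. None of the 9 genes was called by limma, with adjusted p of 0.999 for each. Over all 12274 genes the count was also 0 (0%), with 384 genes (3.13%) at an unadjusted p under 0.05 and 0 called with the block. The interaction was -0.07 for Scn9a (95% interval -0.56 to 0.43), -0.14 for Cacna2d1 (-0.59 to 0.31) and 0.07 for Cacnb2 (-0.29 to 0.44). In Scn9a, Cacna2d1 and Cacnb2 the sign of the interaction was below 0 in F1 and M1 and above 0 in M2 and F2. It was 0.34 for Kcnk16 (-0.54 to 1.21), the widest interval of the 9.

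Correlations between the 9 genes across the 16 libraries are given as a description, since all values share the same libraries and scaling. Cacna2d1 correlated with Cacnb2 (Pearson r = 0.88 on log2 values, n = 16 libraries) and with Scn9a (0.86), and Cacna1a with Cacna1c (0.85) and Cacna1d (0.84). Kcnh6 correlated with Kcnk16 (0.67) and was below 0 with Cacna2d1 (-0.45) and Cacnb2 (-0.41). Values between these were given by other pairs, such as Cacna1a with Cacnb2 and Cacna2d1 (0.48 each), Cacna1c with Cacnb2 (0.27) and Scn8a (0.20), and Kcnh6 with Cacna1a (0.13). The genes most like each of the 9, among 12273 searched, were Glcci1, Snx13 and Dido1 for Scn9a (r = 0.97 each), Ralgapa1, Ppp3cb and Nckap1 for Cacna2d1 (0.98 each), and Dhdh, Kcnip4 and Ckap5 for Cacnb2 (0.97 each). They were Lrrc36, A530020G20Rik and Jhy for Cacna1a (0.93 each), Trio, 2900005J15Rik and Dffb for Cacna1c (0.94, 0.93 and 0.92), and Pnmal1, Hapln1 and Tacc2 for Cacna1d (0.94, 0.93 and 0.93). Likeness was lower for Kcnh6 (Wdr90, Tsta3 and Cblc at 0.89, 0.88 and 0.87), Kcnk16 (Commd1, Dyrk3 and Psma5 at 0.90, 0.89 and 0.89) and Scn8a (Zfp108, St3gal6 and Gm10416 at 0.85, 0.82 and 0.82). Kcnip4, the A-type potassium channel partner that was among the 3 for Cacnb2, is also a member of the lists below.

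To place the 9 genes among other channels, 9 lists of channel and calcium handling genes were examined, holding 183 genes in the matrix. Of the 69 that passed the filter in the comparison of libraries labelled Ad-Cre with Ad-LacZ, 14 were called lower and 2 higher by limma, or 23.2% against 16.6% of all genes. With the block 31 were lower and 8 higher, where 33.9% of all genes were called. With the trend on exon length taken out, 12 were lower and 2 higher, where 16.5% of all genes were called and 8.34% were lower. The other genes of the lists were below the filter.

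**Figure D4:**
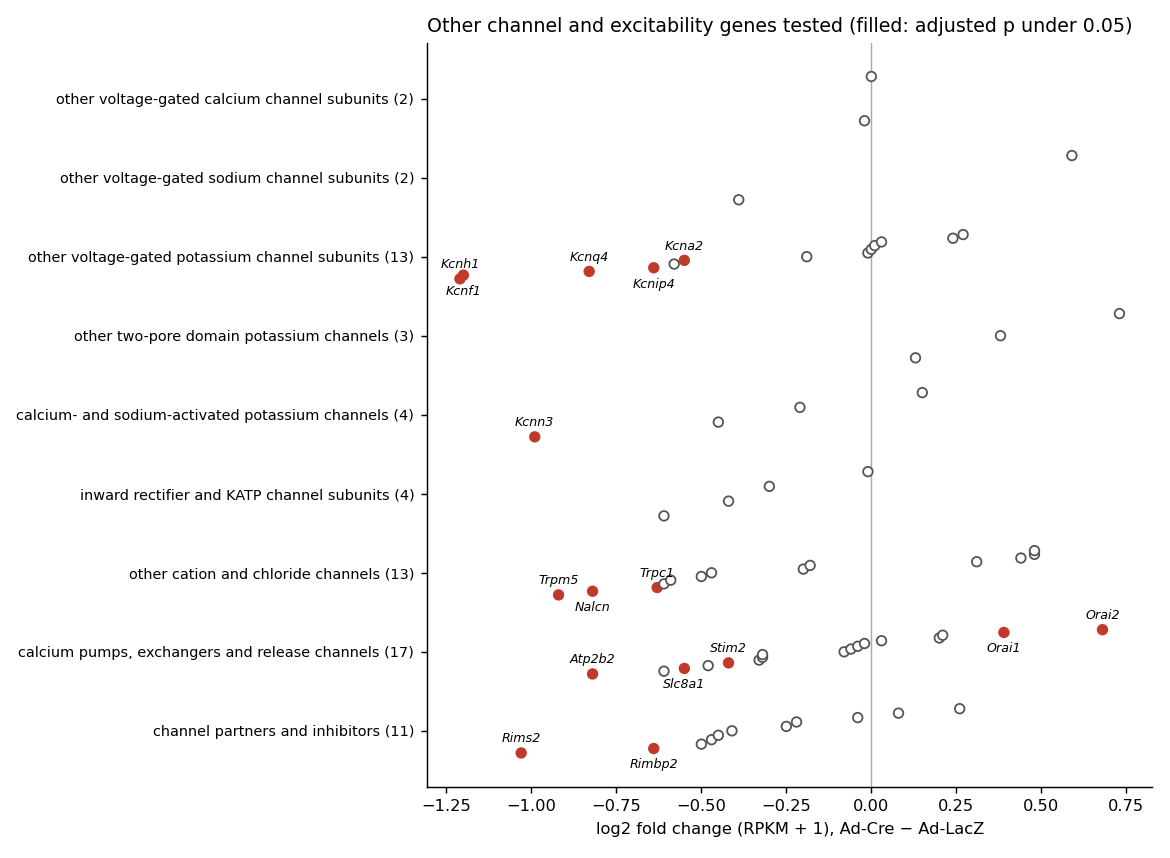
Log2 fold change on the log2(RPKM + 1) scale between libraries labelled Ad-Cre and Ad-LacZ (x axis) of the 69 other channel and calcium handling genes tested, by list (rows, number of genes tested in parentheses; height within a row only separates the points); filled and named points have an adjusted p under 0.05. Of the 16 filled points, 14 lie below 0, down to -1.21 for Kcnh1, and Orai1 and Orai2 lie above it.

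The closest relatives of the 9 genes mostly did not pass the test. Of 21 other voltage-gated calcium channel subunits only Cacnb3 and Cacnb1 were tested: Cacnb3, the β3 subunit, was at 21.8 RPKM (SD 2.98, n = 4) in Ad-LacZ and 21.4 RPKM (SD 2.33) under the Ad-Cre label (-0.02, limma adjusted p = 0.932), and Cacnb1 was at 1.5 RPKM in both. Cacnb3 was thus well above Cacnb2 in level per length. Of 12 other sodium channel subunits 2 were tested and neither was called. Scn3a, a pore like Scn9a, was at -0.39 (adjusted p = 0.289, and 0.0493 with the block). Of 13 other two-pore domain potassium channels, the family of Kcnk16, 3 were tested and none was called; Kcnk3 was at 0.73 (adjusted p = 0.0962, and 0.00273 with the block), Kcnk1 at 0.38 (0.0863, and 0.018 with the block) and Kcnk12 at 0.13.

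Among 50 other voltage-gated potassium channel subunits, 13 were tested and 5 were lower. Kcnh1, a pore of the ether-à-go-go family to which Kcnh6 also belongs, was at 4.39 RPKM (SD 0.808, n = 4) in Ad-LacZ and 1.32 RPKM (SD 0.383) under the Ad-Cre label, a log2 fold change of -1.21 (SE 0.14; limma adjusted p = 0.00205). Kcnf1, a silent subunit that modifies other pores, was at -1.20 (adjusted p = 0.0192) and Kcnip4 at -0.64 (0.016). The list of calcium- and sodium-activated potassium channels had 1 of 4 tested lower, Kcnn3, a small-conductance channel, at -0.99 (adjusted p = 0.00951), while Kcnmb2 (-0.45) and Kcnma1 (-0.21) were not called. None of the 4 inward rectifier and KATP channel subunits tested was called, among them Abcc8 at -0.61 (adjusted p = 0.177) and Kcnj11 at -0.30 (0.323), which form the ATP-sensitive channel, and Kcnj12 at -0.42 (0.0596); Abcc8 and Kcnj12 were called with the block, at 0.01 and 0.0281.

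Of 13 other cation and chloride channels tested, 3 were lower: Nalcn, the sodium leak channel, from 8.09 to 4.14 RPKM (-0.82, limma adjusted p = 0.00344), Trpc1 at -0.63 (0.00339) and Trpm5, a calcium-activated cation channel, at -0.92 (0.0456). Of 17 calcium pumps, exchangers and release channels tested, 3 were lower and 2 higher. Atp2b2, a plasma membrane calcium pump, was at -0.82 (adjusted p = 0.0356) and Stim2, a sensor of endoplasmic reticulum calcium, at -0.42 (0.0435), whereas Orai1, the channel that such sensors open, was at 0.39 (0.036). Of 11 channel partners tested, 2 were lower: Rims2 at -1.03 (adjusted p = 0.00565) and Rimbp2 at -0.64 (0.0291), proteins that tether calcium channels at release sites. Calm2, a calmodulin gene, was at -0.45 (0.0567).

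With the inhibitor present, 14 of 66 list genes tested were lower and 6 higher between virus labels (30.3% against 20.2% of all genes). The inhibitor itself gave no call among 65 list genes in cells labelled Ad-Cre, where 0.0174% of all genes were called. With the block 4 were higher and 5 lower, where 6.52% of all genes were called. In Ad-LacZ it gave 1 call among 70 list genes, where 0.197% of all genes were called. This was Kcnab3 (-1.33, limma adjusted p = 0.036), named here after its value was seen, and the call was lost with the block (0.0645), and with the length trend removed no list gene was called.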

How the data were processed

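Poly(A) RNA-seq of 16 libraries (4 conditions, 4 islet preparations) was used. The authors deposited 1 matrix of RPKM values per gene; paired reads had been aligned with STAR to GRCm38, and the counting software and strandedness were not given in the sources used here. Another 3 columns matched no sample and were not used. Depth was inferred by taking the commonest low value of RPKM times exon length in each library as 1 read. It was 7723000 to 25466000 reads per library. Whole reads were recovered within 0.01 for 90.78 to 91.92% of low values per library. Groups came from the sample labels. The 9 genes and all gene lists were chosen with earlier results of these data known.

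RPKM values were rescaled between libraries by trimmed mean of M-values without weights (trim 30% of ratios, 5% of levels) and analysed as log2(RPKM + 1), a scale that understates changes of low genes. A gene entered a comparison if 4 or more of its libraries exceeded 1 RPKM, and was fitted with limma 3.58.1 (R 4.3.3, eBayes with trend), 8 libraries per comparison and 16 for the interaction. P-values were adjusted by Benjamini-Hochberg over all genes tested, and genes with an adjusted p under 0.05 were called; intervals are limma's. Exact permutation tests were two-sided. The fit was tested on simulated data.

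Named besides the 9 genes are Hspa5, Jun, the 3 genes of each channel list with the smallest adjusted p in the comparison of Ad-Cre with Ad-LacZ, and for each of the 9 genes the 3 others with the highest correlation over the 16 libraries; 1 gene that this rule names is not reported here. The labels give each preparation 1 library per condition, and deviations from the group means correlated between libraries of the same preparation (0.11 to 0.799 over the 4 comparisons; other pairs averaged -0.22 to -0.124), so the preparation was also fitted as a block. Other alternatives were pseudocount and filter of 0.1, no filter, RPKM as deposited, quantile normalization, eBayes without trend, 1 fit of all libraries, and leaving out each preparation or the library of the other lane. A voom fit on recovered reads (which called 1716 genes in the first comparison) and removal of each library's lowess trend on exon length, without and with the block, were chosen after seeing the data, as was the fold of mean RPKM. P-values measure the spread between these cultures.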

Additional observations from a re-analysis of the deposited data

Results flagged for a closer look

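Among 35 channel and reference genes in the 4 conditions, 5 of 140 sets of 4 libraries held a library whose gap to its nearest neighbour, as a share of the range of the set, was beyond the 95% critical value of Dixon's test. Chance gives about 1 in 20. None of the 9 channel genes of the report was among them. The share was 0.847 for Kcnip4 in the Ad-Cre + JNK inhibitor library of M2 (0.964 RPKM, the others 0.416 to 0.5) and 0.909 for Nalcn in the library labelled Ad-Cre of M1 (4.66 RPKM, the others 3.93 to 4). In Ad-LacZ + JNK inhibitor the library of F1 was low for Kcnk12 (share 0.892; 1.95 RPKM, the others 3.82 to 4.05) and Kcnj12 (share 0.846; 1.46 RPKM, the others 2.31 to 2.47). Trpc1 was high in the Ad-Cre + JNK inhibitor library of F2 (share 0.958; 2.26 RPKM, the others 1.72 to 1.74), which is the library of the other lane.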

How the results depend on the processing

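Scn9a kept its call in the first comparison under all 15 alternatives, Cacna2d1 under 11 and Cacnb2 under 6. The block added Cacna1a there and ended Cacna1d with inhibitor, and changed no other call of the 9 genes. It gave 3933 genes in the first comparison, and 750 and 46 for the inhibitor in Ad-Cre and Ad-LacZ. The cause of the changes below was not tested, beyond the smaller number of libraries when a preparation was left out.

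In the first comparison 1 of the 9 genes was called with the length trend removed, and 3628 of all genes when the block was added. Leaving out 1 preparation gave 1 to 2 of the 9 genes (2 without M1) and 165 (without F2) to 901 of all genes, with 514 without F1 and 478 without M1. It gave -0.15 to 0.14 for Kcnh6 and -0.12 to 0.10 for Kcnk16, above 0 without M2. With the length trend removed, without and with the block, Cacna1c was at 0.20 and Scn8a at 0.05.

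For the inhibitor in Ad-Cre, 0 genes were called with no filter, the filter of 0.1, RPKM as deposited, quantile normalization, eBayes without trend, the length trend removed, without the library of the other lane, and without each preparation. The count was 57 in 1 fit of all libraries and 589 with the length trend removed and the block. Cacnb2 was at 0.04 with quantile normalization, 0.02 with the length trend removed (also with the block) and -0.14 to 0.03 without each preparation, and Cacna1a at -0.11 to 0.01. For the inhibitor in Ad-LacZ, 4 genes were called with no filter, 7 with RPKM as deposited, 10 in 1 fit of all libraries, 36 with the length trend removed and the block, and 1 to 3 without each preparation. There Kcnk16 was at -0.14 to 0.00 and Cacna1a at -0.16 to 0.00 without each preparation.

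With inhibitor, 1 fit of all libraries called 5 of the 9 genes and 3594 of all genes between virus labels, and the length trend removed with the block called 1 of the 9. Without each preparation 0 (without F2) to 2 of the 9 and 278 (without F2) to 3223 genes were called, with 1284 without F1 and 409 without M1, and 1406 without the library of the other lane. Scn8a was at 0.05 with quantile normalization and 0.29 with the length trend removed, Cacna1c at 0.08 in the latter, both also with the block, and Kcnh6 at -0.12 to 0.48 without each preparation. RPKM as deposited moved the median of all genes to -0.14 in this comparison and in that of the inhibitor in Ad-Cre, and to -0.12 in the interaction.

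For the interaction, 1 gene was called with quantile normalization and 2 with the length trend removed. Cacna1a was at -0.11 and Cacnb2 at 0.00 with RPKM as deposited, and Scn9a at 0.04 with quantile normalization. Without each preparation the values were -0.21 to 0.08 for Scn9a, -0.07 to 0.09 for Cacna1a and -0.05 to 0.24 for Cacnb2. Depth limits Scn8a most, with 113 to 499 reads per library.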
